A study of Mus musculus with 4 samples.

Results

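The genes described here are the replication-dependent histones, the histone genes whose mouse symbols open with Hist1h, Hist2h, Hist3h or Hist4h. A total of 65 of the 20714 gene symbols listed in both RNA-seq and Ribo-seq matched. The symbols alone decide membership, but the family was chosen by its high ratio of ribosome-protected fragments (RPF) to mRNA in these same libraries. By class, 6 encode the linker histone H1, 18 encode H2A, 17 encode H2B, 11 encode H3, and 13 encode H4. By cluster, 53 belong to Hist1 on chromosome 13, 9 to Hist2 on chromosome 3, 2 to Hist3 on chromosome 11, and 1 to Hist4 on chromosome 6. Another 3 Hist symbols were listed only by RNA-seq (Hist1h2al, Hist2h3c1, and Hist3h2bb-ps), and Hist1h2br was listed only by Ribo-seq.

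The samples were wild-type blastocysts, with 2 replicate libraries for each assay. Mothers were C57BL/6J females aged 4 weeks and fathers were PWK/PhJ males, although the strain label reads C57BL/6N x PWK. Embryos were taken at the 8-cell stage, grown in KSOM medium, and freed of the zona pellucida, so that each library pools trophectoderm and inner cell mass. RNA-seq used Smart-seq2, which primes on poly(A) tails, and Ribo-seq used Ribo-lite, a low-input form of ribosome profiling. Nothing in the labels says that replicates came from separate pools of embryos, so p-values measure only the spread between these libraries.

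Core histones H2A, H2B, H3, and H4 form the octamer around which nucleosomal DNA is wound, and H1 binds the DNA between nucleosomes. Replication-dependent histone genes are transcribed mainly in S phase, when new chromatin needs histones. Their mRNAs end in a conserved stem-loop that Slbp binds, instead of a poly(A) tail. A library primed on poly(A) therefore captures only the part of these mRNAs that carries adenosines, and low capture cannot be told apart from low mRNA in this design.

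The stem-loop was searched for because it is the sequence that sets these mRNAs apart and because the rule did not use it. The motif, which reads GG, any 2 bases, CT, any 4 bases, AG, any 2 bases, and CC, was searched for on the coding strand in the 100 bases after the stop codon. It was present in 59 of the 64 members with an annotated coding sequence (GENCODE vM1 on NCBIM37, the assembly of mm9). It was present in 0.600% of all 21822 coding genes searched. The 5 members without it in this window were Hist1h2an, Hist1h2bp, Hist1h2bq, Hist2h2bb, and Hist2h2be. Where found, it started a median of 31 bases after the stop codon, with a range of 21 to 58. The following examples give the 3 most frequent forms and further forms of H4, with the stem-loop in capitals and 5 flanking bases on each side.
Hist1h1c (H1), chr13:23831376-23831401, plus strand: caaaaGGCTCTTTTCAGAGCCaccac
Hist1h2ao (H2A), chr13:21902762-21902787, plus strand: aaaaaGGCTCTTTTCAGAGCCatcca
Hist1h2be (H2B), chr13:23677395-23677420, minus strand: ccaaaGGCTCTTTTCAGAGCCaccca
Hist1h3c (H3), chr13:23836911-23836936, minus strand: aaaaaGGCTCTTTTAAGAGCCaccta
Hist1h4d (H4), chr13:23673814-23673839, plus strand: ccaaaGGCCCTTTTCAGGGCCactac
Hist1h4b (H4), chr13:23849230-23849255, plus strand: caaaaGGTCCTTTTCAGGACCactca
Hist1h4a (H4), chr13:23852664-23852689, minus strand: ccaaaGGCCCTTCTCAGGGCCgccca
Hist4h4 (H4), chr6:136752514-136752539, minus strand: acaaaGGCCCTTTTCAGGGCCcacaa

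There were 8 forms of the stem-loop among the 59 members. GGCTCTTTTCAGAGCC was held by 35 members of the H1, H2A, H2B, and H3 classes, and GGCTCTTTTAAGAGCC by 9 members of the same classes. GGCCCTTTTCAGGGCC was held by 8 members, all of them H4. The 13 H4 members held 4 forms in total, and none of these was held by a member of another class. A match shows that the letters are present, not that a stem-loop forms.

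The coding sequences of a class are close to copies of each other, which bears on how reads could be assigned. The median identity between members of equal length was 96.7% in H2A, 97.2% in H2B, 97.5% in H3, and 93.9% in H4. The window of 28 bases, about the length of a footprint, that was most shared in each core class shows this.
H2A, from Hist1h2aa at chr13:24026587-24026614, plus strand, held by 17 of 18 members: tggccatccgcaacgacgaggagctcaa
H2B, from Hist1h2bb at chr13:23838742-23838769, plus strand, held by 15 of 17 members: ggcaagaagcgcaagcgcagccgcaagg
H3, from Hist1h3a at chr13:23854042-23854069, minus strand, held by 10 of 10 members: atccggcgctaccagaagtcgaccgagc
H4, from Hist1h4a at chr13:23852831-23852858, minus strand, held by 12 of 13 members: ggtgtgctgaaggtgttcctggagaacg

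The H2A window occurred at 22 places in the genome, above the limit of 20 places that the authors set for a read. The median share of windows held by no other member was 82.3% in H1, 11.02% in H2A, 15.95% in H2B, 12.9% in H3, and 19.1% in H4. RPF values of most single core histone genes therefore rest largely on how Cufflinks divided shared reads and are uncertain. Core members with mostly unshared windows were 3 of H2A, 4 of H2B, 1 of H3, and 2 of H4. RPF values of H1 members rest mostly on their own reads. How far mRNA values, counted on whole transcripts, rest on shared reads was not measured.

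RPF was high and mRNA was low for most of these genes. Over the 65 members, the median was 1565 and 1869 FPKM in Ribo-seq replicates 1 and 2, against 12.9 and 18.9 FPKM in the RNA-seq replicates. In these pooled embryos, fewer cells in S phase and less RNA per cell cannot be told apart. RPF of the median member differed 1.12-fold between replicates. The mRNA level differed 1.25-fold between replicates in the median of the 58 members with a mean of at least 1 FPKM. Members took 7.57% and 8.14% of the summed RPF FPKM of all genes, against 0.578% and 0.609% of the summed mRNA FPKM. Among the 50 genes with the highest mean RPF, 7 were members, all of them H4, and among the top 200 there were 34. With RPF per full coding length these counts were 5, again all H4, and 32. The top 200 by mRNA held 1 member, Hist1h4d, with only the highest entry of a repeated symbol used. Hist1h2ao is such a symbol, and its rank with entries summed was not computed.

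**Figure D1:**
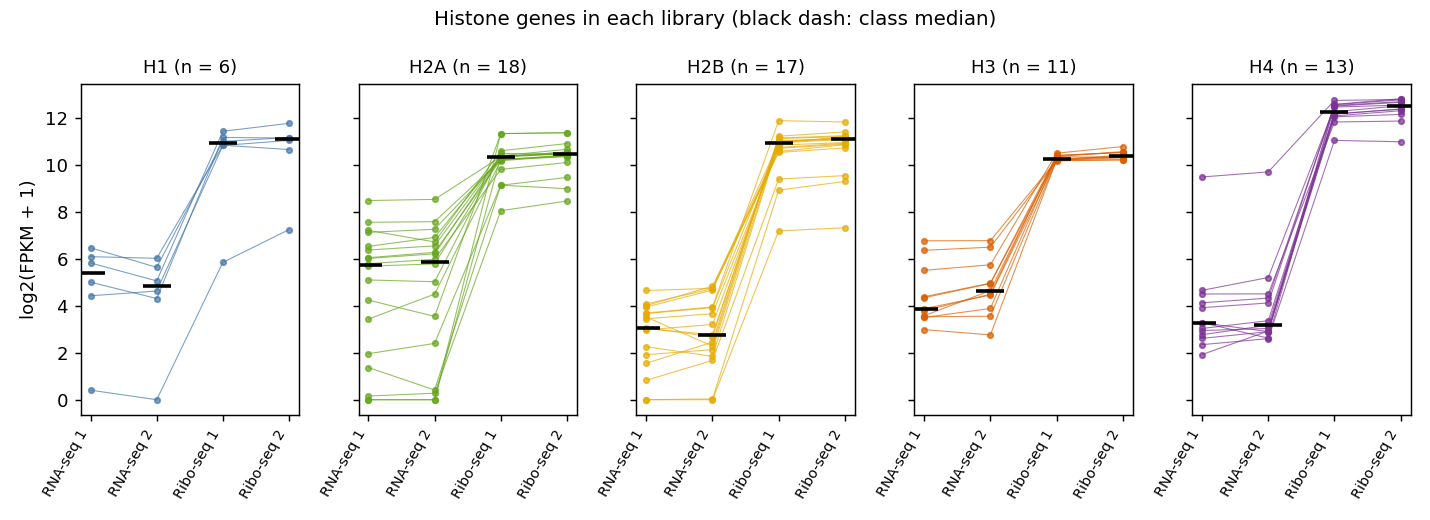
Level of each histone gene in the 4 libraries as log2(FPKM + 1), with 1 panel per class, 1 line per gene, and a black dash at the class median. In every class the median rises from RNA-seq to Ribo-seq, most in H4, where 1 gene (Hist1h4d) has a far higher mRNA level than the other 12.

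The deposited RPF scale favours short coding sequences, so classes were compared on 2 scales. Cufflinks divides by an effective length, the coding length less the assumed fragment length, and this raised FPKM over a value per full coding length by a median of 1.45-fold for H1, 2.07-fold for H2A, 2.14-fold for H2B, 1.97-fold for H3, and 2.79-fold for H4. On the deposited scale, the class median RPF was 4969 and 5930 FPKM for H4. It was 1977 and 2191 FPKM for H2B, and 1956 and 2204 FPKM for H1. It was 1304 and 1423 FPKM for H2A, and 1227 and 1326 FPKM for H3.

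Per full coding length, H4 remained highest and H1 came second. The median was 1781 and 2126 FPKM for H4 and 1361 and 1522 FPKM for H1. It was 926 and 1025 FPKM for H2B. H3, with 643 and 685 FPKM, and H2A, with 630 and 682 FPKM, differed by less than their replicates did. Likewise, H1 and H2B did not differ beyond their replicates on the deposited scale. In implied footprints, the 13 H4 members summed to 3885 and 3927, the 17 H2B members to 2913 and 2910, the 6 H1 members to 2631 and 2622, the 18 H2A members to 2341 and 2355, and 10 of the 11 H3 members to 1413 and 1412.

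**Figure D2:**
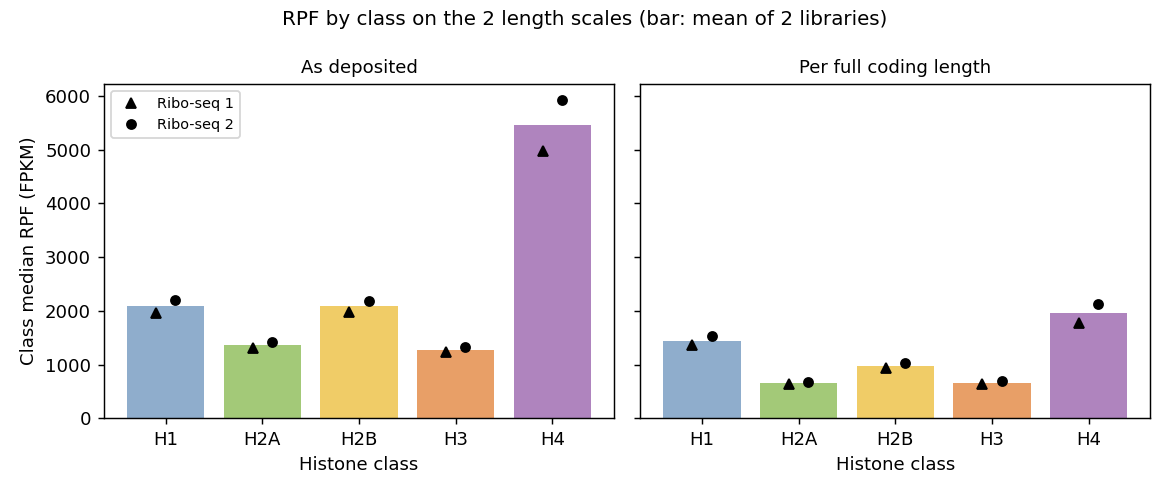
Class median RPF in FPKM as deposited (left) and per full coding length (right), with bars at the mean of the 2 Ribo-seq libraries and a symbol for each library. H4 is highest in both panels, but its lead over H1 narrows, from 4969 and 5930 against 1956 and 2204 FPKM to 1781 and 2126 against 1361 and 1522 FPKM.

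The mRNA of the classes stood in another order. The class median was 52.8 and 58.5 FPKM for H2A, 43.6 and 28.2 FPKM for H1, 13.8 and 24.2 FPKM for H3, 8.71 and 8.07 FPKM for H4, and 7.39 and 5.86 FPKM for H2B. H2A thus had the highest median mRNA and, beside H3, the lowest median RPF. Across the 65 members, the Spearman correlation of mean RPF with mean mRNA was -0.020, and within classes it lay between -0.23 (11 H3 members) and 0.45 (13 H4 members). These correlations are across genes that share reads and libraries, and they are given as descriptions.

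The share of each class in the summed FPKM of the members compares the classes within a library, without the overall difference between the assays. Of a symbol repeated in the RNA-seq tables, such as Hist1h2ao, only the highest entry is counted in these shares. H2A made up 16.1% of RPF in each replicate, against 45.1% and 43.7% of mRNA. H2B made up 21.2% and 21.02% of RPF, against 4.98% and 5.75% of mRNA. H4 made up 45.5% and 45.7% of RPF, against 29.2% and 31.4% of mRNA. For these classes the RPF and mRNA libraries did not overlap, and for H2A and H2B the gap was many times the spread between replicates.

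For H3 the shares were 9.68% and 9.57% of RPF, against 11.7% and 13.1% of mRNA, a difference of -2.75 points. With RPF per coding length it was 1.136 points, but Hist2h3c2, which has no coding length, was then left out of both assays. Its mRNA level, 109 FPKM, was the highest of the H3 class, and the scale and the lost gene were not tested apart. On this scale only RPF was recomputed, while mRNA stayed as deposited. For H1 the shares were 7.57% and 7.54% of RPF, within the range of 9.07% and 6.01% of mRNA. With RPF per coding length the H1 shares were 11.96% and 11.89%, above both mRNA libraries, and the difference was 4.10 instead of 0.014 points. On the same scale the difference for H4 shrank from 15.3 to 5.92 points, while H2A (-28.2) and H2B (17.1) stayed close to their values on the deposited scale. A two-sided exact permutation test gave p = 0.333 for H2A, H2B, H3, and H4 (0.417 adjusted over the 5 classes) and p = 1 for H1. With 2 libraries against 2 libraries, 0.333 is the smallest p possible, so no share could pass a threshold. Hist1h4d and Hist1h2ao held much of the mRNA. Without them, which was chosen after seeing the data, the RPF share minus the mRNA share was 36.1 points for H4 instead of 15.3, -35.9 instead of -28.3 for H2A, 13.7 instead of 15.7 for H2B, -9.75 instead of -2.75 for H3, and -4.11 instead of 0.014 for H1. The size of the H4 and H3 gaps and the direction for H1 and H3 thus depended on the length scale or on which genes were kept.

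**Figure D3:**
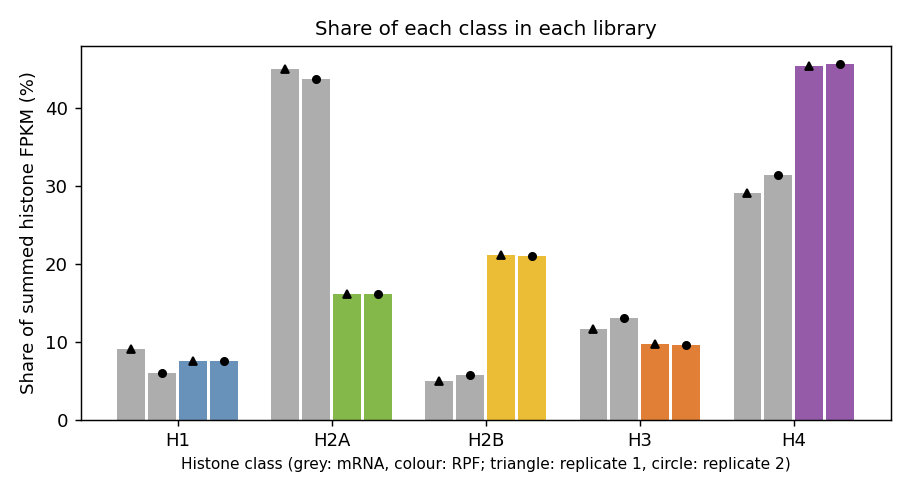
Share of each class in the summed histone FPKM of each library, in percent, with mRNA in grey and RPF in colour, and triangles and circles for replicates 1 and 2. H2A falls from 45.1% and 43.7% of mRNA to 16.1% of RPF, whereas H2B and H4 take larger shares of RPF than of mRNA.

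The difference of RPF minus mRNA is given as log2(FPKM + 1) centred on the median of the tested genes in each library. It is the quantity for which the members were chosen, so it is described and not tested. All 65 members had both Ribo-seq libraries above both RNA-seq libraries, as had 28.8% of all 8327 tested genes. Of the members, 0 had both Ribo-seq libraries below both RNA-seq libraries, against 38.7% of the tested genes. Both counts follow from how the family was chosen. The limma fit across all genes called 6.65% of them higher and 5.31% lower at an adjusted p under 0.05 and a difference of at least 1. Its calls are used below only for genes that are not members.

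The median difference over the members was 5.27, with a range of 0.44 to 9.86 (up to 8.45 in those that passed the filter), whereas the median over all tested genes was -0.24 and their 5th to 95th percentiles ran from -2.15 to 1.91. By class, the median was 7.58 for H4, 6.54 for H2B, 4.76 for H1, 4.61 for H3, and 2.99 for H2A (2.60 over the 14 H2A members with a mean mRNA of at least 1 FPKM, chosen after seeing the data). With both assays recomputed per full length, an alternative chosen after seeing the data, the medians were 7.06, 5.99, 4.47, 4.43, and 2.97, in the same order. H1 and H3 differed by less than the spread between replicates on both scales.

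**Figure D4:**
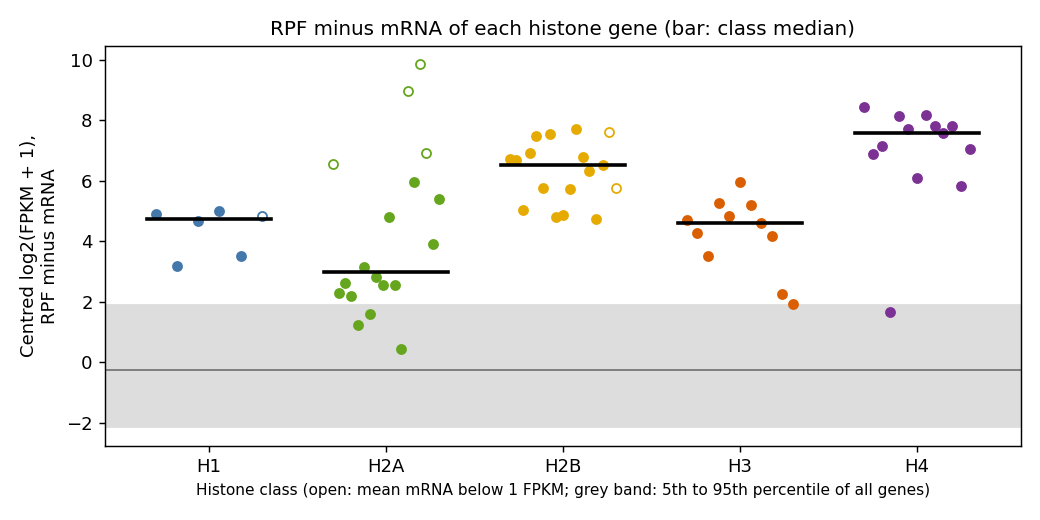
Centred log2(FPKM + 1) of RPF minus mRNA for each histone gene, by class, with a bar at the class median, open symbols for genes with a mean mRNA below 1 FPKM, and a grey band from -2.15 to 1.91 that holds the middle of all tested genes. Of the H4 genes, Hist1h4d alone lies inside the band, and the H2A genes are the most spread.

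H1 genes have the longest coding sequences and shared the fewest windows. Hist1h1c, which encodes H1.2, was at 2784 and 3524 FPKM in Ribo-seq and at 55.9 and 32.5 FPKM in RNA-seq. Hist1h1d, which encodes H1.3, was at 2321 and 2280 FPKM in Ribo-seq and at 31.2 and 18.9 FPKM in RNA-seq. Hist1h1e, which encodes H1.4, was at 2068 and 2315 FPKM in Ribo-seq and at 88.0 and 49.0 FPKM in RNA-seq. In each of the 3 genes both Ribo-seq libraries lay above both RNA-seq libraries after centring, as in 28.8% of all tested genes. The differences of the 3 genes were 4.66, 5.00, and 3.53. All 3 had less mRNA in replicate 2, and the mRNA of H1 genes differed 1.65-fold between replicates in the median, more than in any other class.

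Hist1h1b, which encodes H1.5, was at 1844 and 1624 FPKM in Ribo-seq and at 67.6 and 64.3 FPKM in RNA-seq, a difference of 3.19, the lowest of the class. Hist1h1t, the testis linker histone, stood apart from the others (it was named after its values were seen). Its RPF was 57.0 and 151 FPKM, which is 13.0 and 31.3 implied footprints, and its mRNA was listed at 0.327 and 0 FPKM. All its 28-base windows were its own.

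H2A genes had the highest median mRNA and the lowest median difference of RPF minus mRNA. Hist1h2ao was at 359 and 372 FPKM in RNA-seq and at 1311 and 1509 FPKM in Ribo-seq. Its difference of 0.44 was the lowest of all members, and 72.2% of all tested genes had a lower one. Its sign depended on the scale, at -0.35 with RPF per coding length and -0.55 when its repeated entries in the RNA-seq tables were summed.

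Hist1h2ap has the same coding sequence as Hist1h2ao and the same listed RPF, but its mRNA was listed at 1.01e-04 and 1.17e-04 FPKM. The pair Hist2h2aa1 and Hist2h2aa2 showed the same pattern. Both were at 2599 and 2667 FPKM in Ribo-seq, the highest of the class, whereas RNA-seq listed 17.99 and 10.7 FPKM for Hist2h2aa1, against 4.40e-04 and 5.01e-04 FPKM for Hist2h2aa2. Such values lie far below what 1 fragment is worth, so no difference is drawn from them, although they give the highest differences on the log scale.

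Hist1h2ae was at 188 and 192 FPKM in RNA-seq and at 1193 and 1379 FPKM in Ribo-seq, a difference of 1.25. Hist1h2ag was at 140 and 153 FPKM in RNA-seq and at 1209 and 1352 FPKM in Ribo-seq, a difference of 1.62. Hist1h2ab was at 148 and 105 FPKM in RNA-seq and at 1565 and 1938 FPKM in Ribo-seq, a difference of 2.29. All 3 had both Ribo-seq libraries above both RNA-seq libraries after centring, as had 28.8% of all tested genes. The mRNA of Hist1h2ae and Hist1h2ag was the next highest of the class after Hist1h2ao, whereas Hist1h2ab had the highest RPF of the class after the Hist2h2aa pair.

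H2B genes had RPF above H2A and the lowest mRNA. Hist2h2bb was at 3813 and 3664 FPKM in Ribo-seq, the highest of the class, and at 11.97 and 14.5 FPKM in RNA-seq, a difference of 6.54. Hist1h2be was at 2407 and 2734 FPKM in Ribo-seq and at 10.5 and 3.88 FPKM in RNA-seq, a difference of 6.92. Hist1h2bm was at 2279 and 2448 FPKM in Ribo-seq and at 1.94 and 4.49 FPKM in RNA-seq, a difference of 7.70. RNA-seq replicates of Hist1h2be and Hist1h2bm differed more than 2-fold and in opposite directions, which is small beside the distance to their RPF.

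The H2B genes with the most mRNA were still well below the top of H2A. Hist1h2bk was at 24.2 and 25.9 FPKM in RNA-seq and at 1977 and 2393 FPKM in Ribo-seq, a difference of 4.88. Hist1h2bj was at 15.1 and 27.7 FPKM in RNA-seq and at 1536 and 1869 FPKM in Ribo-seq, a difference of 4.80. Hist1h2bq was at 15.97 and 25.7 FPKM in RNA-seq and at 1491 and 1701 FPKM in Ribo-seq, a difference of 4.73. Its symbol is repeated in the RNA-seq tables, and with the entries summed the difference was 3.88. Hist1h2br, the symbol that Ribo-seq alone listed, had the same RPF values as Hist1h2bq.

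The genes Hist1h2aa and Hist1h2ba encode the testis forms of H2A and H2B and lie side by side on chromosome 13, at 24026331 to 24026720 and 24025637 to 24026025. They were named after their values were seen. The RPF of Hist1h2aa was 266 and 354 FPKM, or 26.4 and 32.0 implied footprints, with 0.117 and 0.213 FPKM in RNA-seq. The RPF of Hist1h2ba was 678 and 751 FPKM, or 65.3 and 65.6 implied footprints, with 0.778 and 2.19 FPKM in RNA-seq. Their RPF lay below that of most members of their classes and their mRNA was near the limit of detection. Of their windows, 86.7% and 55.1% were their own. Of 4 sperm markers, Prm1 and Tnp1 were listed at 0 FPKM in all 4 libraries, Prm2 was above 0 only in Ribo-seq replicate 2 (33.7 FPKM), and Tnp2 only in RNA-seq replicate 2 (0.515 FPKM).

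H3 genes were the most even in RPF. Their mean RPF spanned only 1.37-fold across 11 members, from 1179 to 1614 FPKM, while their mean mRNA spanned 6.37 to 109 FPKM. Hist1h3c had the highest RPF, at 1457 and 1772 FPKM, with an mRNA level of 44.8 and 52.9 FPKM and a difference of 3.51. Hist1h3e was at 1371 and 1482 FPKM in Ribo-seq and at 12.9 and 21.7 FPKM in RNA-seq, a difference of 4.83. Hist1h3d was at 1318 and 1529 FPKM in Ribo-seq and at 10.4 and 13.8 FPKM in RNA-seq, a difference of 5.27.

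The H3 genes of cluster Hist2 had the most mRNA of the class. Hist2h3b was at 81.7 and 89.8 FPKM in RNA-seq and at 1162 and 1196 FPKM in Ribo-seq, a difference of 2.27. Hist2h3c2 had an mRNA level of 109 FPKM in both replicates and an RPF of 1184 and 1201 FPKM, a difference of 1.94. GENCODE vM1 annotates Hist2h3c2 as a pseudogene without a coding sequence, so it has no value per coding length.

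H4 genes had the highest RPF of all members. Hist1h4d was at 6932 and 7136 FPKM in Ribo-seq and at 722 and 838 FPKM in RNA-seq. Hist1h4a was at 6165 and 7299 FPKM in Ribo-seq and at 5.14 and 6.48 FPKM in RNA-seq. Hist1h4c was at 6126 and 7049 FPKM in Ribo-seq and at 14.2 and 16.5 FPKM in RNA-seq. The RPF ranges of the 3 genes overlapped. With the highest entry of repeated symbols used, the mRNA of Hist1h4d was above that of every other member in both libraries.

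Its difference of 1.67 compared with 8.45 for Hist1h4a and 7.15 for Hist1h4c. Of its coding windows, 40.8% were its own, the largest share among the 11 H4 genes of cluster Hist1. Its stem-loop was of the form that 7 other H4 genes hold. Hist1h4i had the next highest mRNA of the class, at 24.4 and 36.0 FPKM, with an RPF of 5700 and 6045 FPKM and a difference of 6.08.

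On the deposited scale, the shares of the clusters differed less between RPF and mRNA than those of H2A, H2B, and H4. Hist1 held 85.9% and 87.1% of the RPF of the members and 90.2% and 90.8% of their mRNA. Hist2 held 12.2% and 11.2% of RPF and 9.53% and 8.86% of mRNA. The exact permutation test, two-sided, gave p = 0.333 for each of the 4 clusters (0.333 adjusted), again the smallest possible. Without Hist1h4d and Hist1h2ao the direction turned, to 0.903 points more RPF than mRNA for Hist1 and -2.41 points for Hist2. The median difference of RPF minus mRNA was 5.00 over 53 members of Hist1 and 5.96 over 9 members of Hist2. Of these, 50 and 6 passed the filter. The Hist2 members that failed it, with a mean mRNA below 1 FPKM, had the highest differences of that cluster. These were 9.86 (Hist2h2aa2), 7.60 (Hist2h2be), and 6.91 (Hist2h2ab), so no order of the clusters is drawn from the medians.

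Within H2A, 4 members of Hist2 had a median difference of 6.44 and 13 members of Hist1 had 2.57. Within H3 the order was the opposite, with 2.10 for the 2 members of Hist2 and 4.72 for the 9 members of Hist1. In H2A, 1 of the Hist2 members is Hist2h2aa2, whose mRNA was far below 1 fragment. Another, Hist2h2ab, was at 1.59 and 0.334 FPKM in RNA-seq, or 1.67 and 0.332 implied fragments, and also failed the filter. The 2 that passed it had differences of 5.96 (Hist2h2aa1, 5.02 with its repeated entries summed) and 3.91 (Hist2h2ac).

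The H4 genes outside Hist1 had less RPF than those within it. Hist2h4 was at 3666 and 3768 FPKM in Ribo-seq and at 21.7 and 21.9 FPKM in RNA-seq, a difference of 5.85. Hist4h4 was at 2129 and 2041 FPKM in Ribo-seq and at 4.09 and 5.08 FPKM in RNA-seq, a difference of 7.05. Both lay below all 11 H4 genes of Hist1, whose mean RPF ran from 4429 to 7034 FPKM.

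Hist3h2a was at 566 and 510 FPKM in Ribo-seq and at 2.90 and 4.28 FPKM in RNA-seq, a difference of 5.39. Hist3h2ba had an RPF of 146 and 160 FPKM, which is 13.8 implied footprints in each replicate, and RNA-seq listed it at 0 in both libraries. Together the Hist3 genes held 0.494% and 0.420% of the RPF of the members.

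In the core classes, members with mostly unshared windows had the lower RPF, with 1 exception. Per coding length, the 48 members with under 50% of windows of their own had a mean RPF of 486 to 2522 FPKM, and the other 16 had 70.7 to 2155 FPKM. In H2A, 3 of the 3 members with mostly unshared windows lay below all members with shared windows. In H2B this was 3 of 4, with Hist2h2bb as the exception, in H3 1 of 1, and in H4 2 of 2. Among members with mostly shared windows, mean RPF spanned 2.62-fold in H2A, 1.51-fold in H2B, 1.31-fold in H3, and 1.59-fold in H4. In H1, whose windows are mostly unshared, it spanned 30.5-fold. Without Hist1h1t, the lowest of all members, the H1 span was 1.78-fold, which lies among the spans of the core classes. Even RPF among near-identical genes and division of shared reads among them cannot be told apart in these files.

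**Figure D5:**
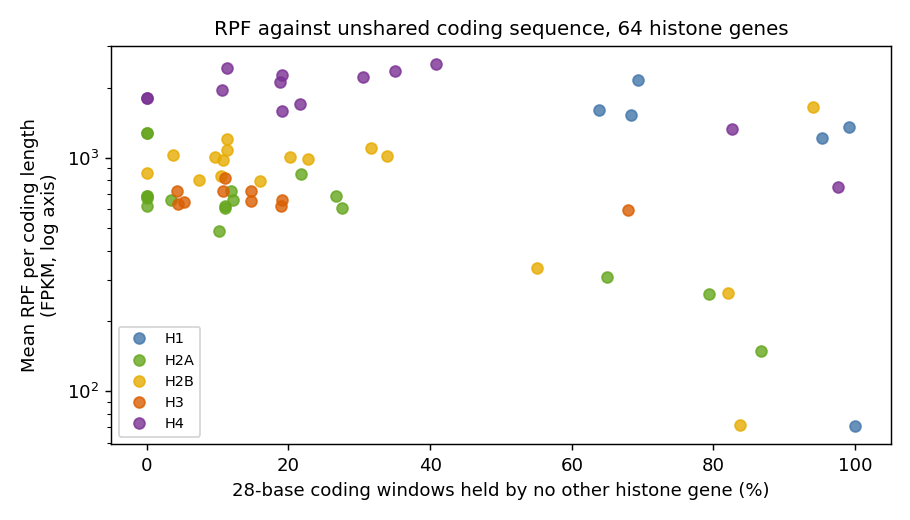
Mean RPF per full coding length (FPKM, log axis) of 64 histone genes against the percent of their 28-base coding windows that no other histone gene holds, coloured by class. The 7 genes with the lowest RPF, from 70.7 to 337 FPKM, all lie at the right, above 50% of windows of their own, while H1 genes other than Hist1h1t lie high on the right.

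The annotated tail was compared with mRNA because some histone genes have longer, polyadenylated transcripts. The 13 members annotated to extend over 300 bases past the stop codon had a median mean mRNA of 19.5 FPKM, and the 51 annotated to end within 300 bases had 14.4 FPKM. The ranges overlapped almost fully, at 0.013 to 87.9 FPKM and 0 to 780 FPKM.

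Genes listed as replication-independent histone variants serve as the nearest comparison. As a group they are made outside S phase as well, mostly from polyadenylated mRNA. Whether each of them, H2afx included, lacks the stem-loop was not checked. Of the 16 on the list, 15 were listed in both assays and 11 passed the filter. RPF was higher than mRNA by limma in 4 of these 11 and lower in 0, against 6.65% and 5.31% of all tested genes. The 4 were H2afx, H2afj, H1fx, and H3f3c. The median difference was 0.76, beside 5.27 for the members and -0.24 for all tested genes, and with RPF per coding length it was 0.13. Without RNA-seq replicate 1 or without RNA-seq replicate 2, limma called 0 genes of any kind, with 1293 and 1250 genes at an unadjusted p under 0.05. Without Ribo-seq replicate 1 or Ribo-seq replicate 2 it called 1268 and 1210 genes higher, against 554 with every library.

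H2afx, the variant phosphorylated at DNA breaks, was at 1749 and 1896 FPKM in Ribo-seq and at 82.5 and 94.5 FPKM in RNA-seq, a difference of 2.85 (limma adjusted p = 0.0218). H2afz, which encodes H2A.Z, was at 5074 and 4151 FPKM in Ribo-seq and at 1132 and 1322 FPKM in RNA-seq, a difference of 0.40 (limma adjusted p = 0.318). H3f3b, which encodes H3.3, was at 961 and 1029 FPKM in Ribo-seq and at 252 and 292 FPKM in RNA-seq, a difference of 0.37 (limma adjusted p = 0.350). With RPF per coding length the sign of both turned, to -0.41 for H2afz and -0.36 for H3f3b. H3f3a, which also encodes H3.3 and was named after its values were seen, was at 229 and 388 FPKM in Ribo-seq and at 397 and 395 FPKM in RNA-seq, a difference of -1.91 (limma adjusted p = 0.0520). The adjusted p of H3f3a was 0.0311 with RPF per coding length, so its call depended on the scale. H2afz had more mRNA than any member, and H3f3b had RPF just under the lowest mean of the H3 members, 1179 FPKM.

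Most factors that act on histone mRNA were present. Of 14 genes for its transcription and 3' processing, 13 were listed in both assays and 11 passed the filter. Zfp473 failed it, at 0 FPKM in both Ribo-seq libraries and 0.762 and 1.26 FPKM in RNA-seq, as did Lsm11, with a mean mRNA of 0.652 FPKM. Of the 11 that passed, RPF was higher in 1 (Upf1) and lower in 1 (Casp8ap2), with a median difference of 0.50. The shares over all tested genes were 6.65% and 5.31%. Slbp, which binds the stem-loop, was at 219 and 244 FPKM in Ribo-seq and at 55.9 and 71.4 FPKM in RNA-seq, a difference of 0.35 (limma adjusted p = 0.402). Of 18 histone chaperones, 17 were listed and passed the filter, and RPF was higher in 4 (Nap1l1, Nap1l4, Rbbp4, and Hjurp) and lower in 0, against 6.65% and 5.31% of all tested genes. With a pseudocount of 0.1 it was higher in 1 of the chaperones and 2 of the variants. Nap1l1, a chaperone of H2A and H2B, was at 594 and 791 FPKM in Ribo-seq and at 58.5 and 65.3 FPKM in RNA-seq, a difference of 1.95 (limma adjusted p = 0.0373).

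The tables give no read counts, but low values fell on steps that imply totals of 5465956 and 5181597 fragments for RNA-seq and 535702 and 486094 for Ribo-seq. Members held about 13184 and 13226 implied footprints, 2.46% and 2.72% of these totals, and at least 13.0 footprints each. By contrast, 9 of 64 members had under 3 implied mRNA fragments in both RNA-seq libraries, and the median H4 member had 9.48 and 10.0. These estimates rest on an assumed fragment length and cover counting error only. By this estimate, the mRNA of H4 and H2B rests on the fewest fragments per median member (10.5 and 10.9 for H2B). Between replicates, however, mRNA differed most in H1, at 1.65-fold in the median, against 1.37-fold in H2B and 1.26-fold in H4. All 10 blastocyst markers were above 0 in every library. Summed markers of oocytes, cumulus cells, and red blood cells were at most 2.74 FPKM in any library.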

How the data were processed

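RNA-seq and Ribo-seq of blastocysts were analysed, with 2 libraries each. The authors deposited FPKM per gene and library. They trimmed reads with Trim Galore 0.4.2 (RNA-seq) or cutadapt 1.14 (Ribo-seq), discarded rRNA reads in Ribo-seq with Bowtie2 2.2.2, mapped to the mm9 transcriptome with STAR 2.5.3a, allowing up to 20 places, and ran Cufflinks 2.2.1 on transcripts (RNA-seq) or coding sequences (Ribo-seq). Reads of near-identical genes could thus be divided among them.

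The members and gene lists were chosen with earlier results of these data known. Where a symbol was repeated, the highest entry was used. FPKM were put on the log2(FPKM + 1) scale, filtered to the 8327 genes averaging 1 FPKM or more in each assay, centred on the library median, and fitted with limma 3.58.1 (R 4.3.3), with Benjamini-Hochberg adjustment. On simulated data for this comparison (8327 genes, 200 changed), the fit recovered 55.5%, and 3.48% of its 115 calls were on unchanged genes. Class and cluster shares used exact permutation tests. Named genes were the 3 with the highest RPF and the 3 with the highest mRNA in each class, the 3 highest and 3 lowest differences, all of Hist3 and Hist4, and up to 4 examples per list, plus genes said to be named after their values were seen.

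Implied fragments and values per full length assumed the Cufflinks default fragment length, 200 bases on average with an SD of 80. The paper describes RNA-seq reads as paired, and their fragment length was not known here, so implied RNA-seq fragments are less certain. Low values lay within 0.1 of a whole fragment for 85.9% and 86.0% of Ribo-seq values and 56.0% and 54.4% of RNA-seq values, where chance gives 20%. Sequences were read from NCBIM37 with GENCODE vM1. Other steps used Python 3.11.15, numpy 2.4.6, scipy 1.17.1, pandas 2.3.3, and matplotlib 3.10.9.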

Additional observations from a re-analysis of the deposited data

How the results depend on the processing

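Under each alternative run, the median difference of RPF minus mRNA stayed above 0 in every class and cluster. Both Ribo-seq libraries lay above both RNA-seq libraries in 65 of 65 members, except for 64 of 65 with quantile normalization or summed symbols. With RPF per coding length this was 63 of 64, and with both assays per full length 64 of 64. The share of all tested genes was computed only for the main run, at 28.8%. The members were chosen for this contrast, so these counts are not a test. The stem-loop was found in 59 members in 100 or 200 bases, in 61 with 1 mismatch, and in 61 after any annotated stop codon (chosen after seeing the data). The median share of unshared windows was 17.4%, or 10.7% with 20-base windows. The cause of the shifts below was not tested unless stated.

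With a pseudocount of 0.1, limma called 308 genes higher and 154 lower instead of 554 and 442, and the median difference was 5.61 over all members, 6.76 for H2B, and 7.29 for Hist3. Without centring it called 4113 higher and 65 lower, since the median over all genes moved from -0.24 to 1.26, and the members' median was 6.77 (H1 6.26, H2A 4.49, H2B 8.04, H3 6.12, H4 9.08, Hist1 6.51, Hist2 7.46, Hist3 7.08, Hist4 8.55). Quantile normalization gave 2.64 for H2A and 5.90 for Hist3. RPF per coding length gave 4.62 over all members (H2A 2.19, H2B 5.62, H3 3.95, H4 6.36, Hist1 4.55, Hist2 5.40, Hist3 4.77, Hist4 5.83), as the shorter classes lose most by construction. Both assays per full length, chosen after seeing the data, gave 4.77 (H2B 5.99, H4 7.06, Hist1 4.69, Hist3 4.72, Hist4 6.78). Members with a mean mRNA of at least 1 FPKM, also chosen after seeing the data, gave 2.60 for H2A.

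Calls higher and lower in the lists were 4 and 0 for variants, 1 and 1 for processing factors, and 4 and 0 for chaperones. With a pseudocount of 0.1 they were 2 and 0, 1 and 0, and 1 and 0. Without centring they were 9 and 0, 8 and 0, and 10 and 0. Variants called were 4 and 1 with quantile normalization, 3 and 1 with RPF per coding length, and 2 and 1 with both assays per full length. Processing factors called lower were 0 with quantile normalization and 2 with the filter met in either assay.

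The replicate numbers were not shown to pair the libraries, since deviations of same-numbered libraries had a correlation of 0.0099 across genes. With the replicate number as a block, limma called 0 genes higher and 0 lower, those of the lists included, with 2594 genes at an unadjusted p under 0.05. With 1 library left out, limma called 0 to 1268 genes higher and 0 to 1987 lower (variants 0 to 6 and 0 to 1, processing factors 0 to 3 and 0 to 1, chaperones 0 to 5 and 0 to 2), where the lone library was assumed to vary like the other assay. The medians then ran from 5.12 to 5.46 over all members, 6.31 to 6.55 for H2B, and 5.84 to 6.31 for Hist2.

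The RPF share minus the mRNA share reversed for H3 with RPF per coding length (1.136 points). On that scale it was 4.10 for H1, 5.92 for H4, -6.71 for Hist1, and 5.35 for Hist2. Hist2h3c2, which has no coding length, was left out of both assays there. The share difference also reversed for H1 with a library left out (-1.51 to 1.54 points). Without Hist1h4d and Hist1h2ao it reversed for H1 (-4.11), Hist1 (0.903), and Hist2 (-2.41). It moved to -2.59 for Hist1 and 1.00 for Hist2 with summed symbols, and to -1.90 and 0.37 with members of at least 1 FPKM in both assays. Of the named histone members, only Hist1h2ao reversed, to -0.55 when repeated symbols were summed and -0.35 per coding length. Of the list genes followed, H2afz reversed to -0.41 with RPF per coding length and -0.22 with both assays per full length, and H3f3b to -0.36, -0.34, and, with quantile normalization, -0.098. Depth limits mRNA of the lowest members, with under 3 implied fragments in 9 of 64.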
